A study of Mus musculus with 28 samples.

Results

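The genes described here are 10 genes of the enzymes and carriers through which vitamin B3 compounds become nicotinamide adenine dinucleotide (NAD+) in the mouse, with Nadk, whose kinase turns NAD+ into NADP+, among them. They were chosen by name, for their place in the pathway, with earlier results of these data known. They are Nampt, Nmnat1, Nmnat2, Nmnat3, Nmrk1, Nmrk2, Naprt, Nadsyn1, Nadk and Slc12a8. Each has 1 entry among the 54446 genes counted in every library. NAD+ is remade from nicotinamide by salvage, in which NAMPT forms nicotinamide mononucleotide (NMN) and an NMN adenylyltransferase (NMNAT) joins it to AMP. Nicotinamide riboside enters through a kinase that phosphorylates it to NMN, and nicotinic acid enters through NAPRT and is finished by NADSYN1. The liver is known as a main site of NAD+ synthesis and exports nicotinamide to other tissues, and orally given NMN can enter the pathway as NMN itself, as its riboside or as nicotinamide.

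RNA was taken from the liver and the kidney of male C57BL/6 mice (C57BL6J in the study's methods) aged 8 weeks after 7 days of gavage with NMN or with water, and poly(A) RNA was sequenced. In the 1340 mg/kg/d schedule, mice had 1 gavage a day, with 4 NMN and 4 water libraries in each organ, and in the 2680 mg/kg/d schedule they had 2 gavages a day, with 3 and 3. Each schedule had its own water mice, so the dose cannot be told apart from the number of gavages or from the handling and sequencing of the schedule. The study calls the replicates biological, and nothing read here says whether a liver and a kidney came from 1 mouse. Depth, as reads assigned to genes, ranged from 12688324 to 16455228 per liver library at 1340 mg/kg/d and from 17573184 to 20635269 at 2680 mg/kg/d. In the kidney the totals ran from 15354270 to 15696435 in water mice and from 13174264 to 14006288 in NMN mice at 1340 mg/kg/d, and from 16358886 to 18983689 and from 22922994 to 33872983 at 2680 mg/kg/d. Kidney depth was thus lower in every NMN library of the first schedule and higher in every NMN library of the second. Reads of mitochondrially encoded genes were 3.89% to 5.77% of these totals in livers at 1340 mg/kg/d and 5.74% to 9.24% at 2680 mg/kg/d. In kidneys they were 8.92% to 10.6% and 19.8% to 21.6%. They are part of the library totals used below, and their part in differences between organs was not tested.

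The labelled tissues were checked against marker genes. The 8 hepatocyte markers led by Alb (albumin) summed to 105975 CPM (counts per 1000000 of the library total) or more in every liver library, and 8 kidney tubule markers led by Kap summed to 24009 CPM or more in every kidney library. Kidney tubule markers were present at 41.2 to 62.4 CPM in the livers at 1340 mg/kg/d, at 1.21 to 9.60 CPM in water livers of the 2680 mg/kg/d schedule, and at 37.4 CPM in NMN liver 1 of that schedule, against 1.81 and 1.85 CPM in the other NMN livers.

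Nampt (ENSMUSG00000020572.8), the gene of the enzyme that converts nicotinamide to NMN, and Nadsyn1 (ENSMUSG00000031090.14), the gene of the synthetase that amidates the last intermediate of the nicotinic acid arm, are the members whose RNA differed between NMN and water mice at the threshold. The 250 bases before the start of each are shown for that reason, from RefSeq on GRCm38.p6, at chr12:32820085-32820334 on the plus strand for Nampt and at chr7:143822853-143823102 on the minus strand for Nadsyn1. Capitals mark GGGCGG or its reverse complement CCGCCC, the core of a GC box.
Nampt: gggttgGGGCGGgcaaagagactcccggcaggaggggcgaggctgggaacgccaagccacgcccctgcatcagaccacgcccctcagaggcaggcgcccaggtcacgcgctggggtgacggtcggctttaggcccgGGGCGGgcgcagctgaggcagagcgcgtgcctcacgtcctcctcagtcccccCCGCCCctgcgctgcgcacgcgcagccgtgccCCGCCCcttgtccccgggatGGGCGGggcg
Nadsyn1: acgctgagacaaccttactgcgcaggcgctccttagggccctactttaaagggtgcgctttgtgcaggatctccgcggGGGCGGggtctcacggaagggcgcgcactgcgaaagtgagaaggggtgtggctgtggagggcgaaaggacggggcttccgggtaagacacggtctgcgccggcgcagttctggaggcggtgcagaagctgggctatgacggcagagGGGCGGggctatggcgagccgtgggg
The Nampt window held 5 such matches and 75.6% G and C, and the Nadsyn1 window 2 matches and 66.0%. GGGCGG, on either strand, was in 32.7% of 32851 windows of this kind. CACGTG, the E-box of the clock factors and its own reverse complement, was in 6.02% of them and in neither of these windows. Promoters were matched for 9 of the 10 members. Of them only Nadk had CACGTG, once, in 1 of its 2 windows. Sites outside these windows, and E-boxes of another sequence, were not searched for.

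Levels were compared between genes as counts per kb of exon per 1000000 counted reads (mean ± SD). In water livers Naprt, which starts the nicotinic acid arm, and Nadk, the cytosolic kinase that turns NAD+ into NADP+, were far above the rest. Naprt was at 51.8 ± 6.79 (n = 4) and 38.7 ± 2.04 (n = 3) in the 1340 and 2680 mg/kg/d schedules, and Nadk at 43.0 ± 4.59 and 38.2 ± 4.02. Their order held in 4 of 4 mice of the first schedule and in 1 of 3 of the second, so they were not separated there. Nampt was at 8.31 ± 3.39 and 6.87 ± 1.36 and Nadsyn1 at 5.90 ± 1.32 and 6.98 ± 0.948, with Nadsyn1 above Nampt in 2 of the 3 mice of the second schedule, so they were not separated there. Nmnat1, the nuclear NMN adenylyltransferase, was at 5.36 ± 0.467 and 4.31 ± 0.358, and Nmrk1, the broadly expressed riboside kinase, at 5.19 ± 1.89 and 2.74 ± 0.520. Neighbours in this middle group changed places in some mice of the first schedule, except Nampt over Nadsyn1, which held in 4 of 4. Nmnat3, the mitochondrial NMN adenylyltransferase, was lower in every mouse, at 1.34 ± 0.295 and 1.44 ± 0.349.

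The kidney had another order. Nadk led at 53.5 ± 4.80 and 44.5 ± 1.47, followed by Nampt at 29.6 ± 3.50 and 34.5 ± 5.64, and this order held in all 7 water kidneys. Nmrk1 came next at 23.7 ± 5.65 and 15.9 ± 1.15, then Naprt at 17.9 ± 2.27 and 14.002 ± 2.79, and these neighbours changed places in 1 of the 3 mice of the second schedule. Nadsyn1 (8.34 ± 0.421 and 8.27 ± 0.426), Nmnat1 (7.13 ± 0.503 and 5.44 ± 0.293) and Nmnat3 (3.77 ± 0.305 and 3.12 ± 0.565) followed in that order in every mouse. The order of some genes depends on the length used. With the longest transcript in place of merged exons, Nmrk1 was above Nampt in water kidneys of the first schedule (45.04 ± 10.7 and 33.1 ± 3.90) but not of the second (30.2 ± 2.19 and 38.5 ± 6.30), and the mean of Nmnat3 was above that of Nmnat1 in both (8.70 ± 0.705 and 8.14 ± 0.575, and 7.21 ± 1.31 and 6.21 ± 0.335). In water livers of the first schedule Nmrk1 then ranked 3, at 9.86 ± 3.59 beside 9.27 ± 3.78 for Nampt. The length of Nmrk1 was also matched by an identifier without its version. By either length the nicotinamide entry enzyme was below the nicotinic acid entry enzyme in the liver and above it in the kidney. Within a library, the level of Nampt was 0.162 ± 0.0708 and 0.179 ± 0.0455 times that of Naprt in water livers and 1.66 ± 0.163 and 2.50 ± 0.443 times in water kidneys, a ratio that no scaling of libraries can move. With the longest transcript the ratios were 0.146 and 0.162 in the livers and 1.504 and 2.26 in the kidneys. Eef1d overlaps 11.8% of the exon bases of Naprt, and reads lying wholly on bases shared by both genes are ambiguous and not counted for either.

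**Figure D1:**
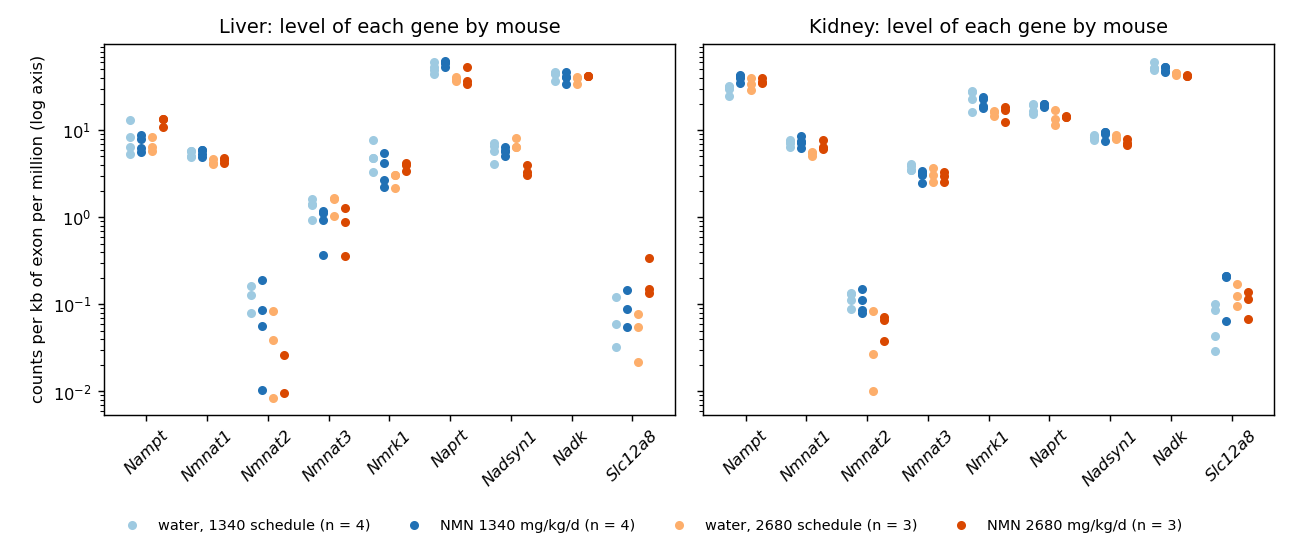
Level of each gene in every library, in counts per kb of exon per 1000000 counted reads on a log axis, for liver (left) and kidney (right), with 1 point per mouse and colours for treatment and schedule. Libraries with 0 counts are not drawn, and Nmrk2 is left out because all its counts were 0. By this length, Naprt and Nadk lead in the liver, and Nadk and Nampt in the kidney.

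Nmnat2, Slc12a8 and Nmrk2 were at or near the limit of detection. Nmnat2, the Golgi-associated adenylyltransferase known from neurons, had 0 to 14 counts per library. Of 8 neuron markers, 4 were at 0 in every water liver at 2680 mg/kg/d, and none was at 0 in all livers of a group at 1340 mg/kg/d. Their summed level in livers was 21.4 to 32.7 CPM at 1340 mg/kg/d and 11.5 to 28.6 CPM at 2680 mg/kg/d, led by Syt1 in both, and their part in the Nmnat2 counts was not tested. Slc12a8, reported as an intestinal NMN transporter, a role that is debated, had 0 to 29 counts. Nmrk2, the riboside kinase known from muscle, had 0 counts in 28 of 28 libraries. A floor of 3 counts in a library allows 0.0886 to 0.236 CPM, a limit that covers counting error only.

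Kidney and liver were compared directly in water mice with edgeR. Nampt and Nmrk1 were higher in the kidney and Naprt was lower, in both schedules and also with library totals in place of TMM, the scaling that corrects for composition. Changing the scaling moved the median of all genes by 0.95 and 0.93 on the log2 scale, so the organs differ in composition and a direction is firm only where both scalings give it. Here and below a log2 fold change is followed by its standard error (SE). Nampt had 0.89 (SE 0.21, edgeR adjusted p = 0.00240) at 1340 mg/kg/d and 1.40 (SE 0.16, adjusted p = 1.6e-05) at 2680 mg/kg/d, and Nmrk1 1.25 (SE 0.23) and 1.61 (SE 0.16). Naprt had -2.49 (SE 0.14, edgeR adjusted p = 3.3e-09) and -2.40 (SE 0.15). Every kidney lay beyond every liver for these 3 genes, as for 61.9% and 75.3% of all genes tested in the 2 schedules.

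Nmnat1, Nadsyn1 and Nadk were called lower in the kidney by TMM, at -0.54, -0.45 and -0.63 in the first schedule and -0.59, -0.68 and -0.71 in the second, but they turned to 0.41, 0.50 and 0.32 and to 0.33, 0.24 and 0.22 with library totals. For these enzymes the data give no direction between organs. Nmnat3 was called higher in the kidney in the first schedule (0.54, SE 0.18, edgeR adjusted p = 0.0178) and not in the second (0.19, SE 0.22, adjusted p = 0.447), where library totals gave 1.118 (adjusted p = 0.000693). In the first schedule the Nmnat3 call was lost without water kidney 2 (edgeR adjusted p = 0.0505), and that of Nadsyn1 without water liver 3 or 4 or water kidney 1, 2 or 3, at up to 0.0722. The Nadsyn1 call was also lost with upper quartile scaling (edgeR adjusted p = 0.125), without a filter on low counts (0.0605) and with at least 10 counts required in every library (0.104). In all, 7 of the 8 members tested were called at 1340 mg/kg/d, where 66.9% of all tested genes were, with 3 higher and 4 lower beside 36.1% and 30.9% of genes. At 2680 mg/kg/d, 6 of 7 were called, where 70.5% of genes were, with 2 higher and 4 lower beside 39.5% and 31.0%. With library totals 6 members were called higher and 1 lower at 1340 mg/kg/d. At 2680 mg/kg/d 3 were called higher and 1 lower, with Nmnat3 gained and Nmnat1, Nadsyn1 and Nadk no longer called. Over all genes, 5263 were called higher and 4509 lower in the kidney of the first schedule by TMM, and 10151 and 1683 with library totals. The same counts in the second were 5862 and 4602, and 10388 and 1850. The 8 adipocyte markers summed to 11.8 to 56.9 CPM in water kidneys of the first schedule and 129 to 226 CPM in those of the second, against 3.48 to 5.15 and 1.94 to 7.17 CPM in water livers, and their part in these differences was not tested. In bulk RNA, more cells of a type and more RNA per cell cannot be told apart.

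**Figure D2:**
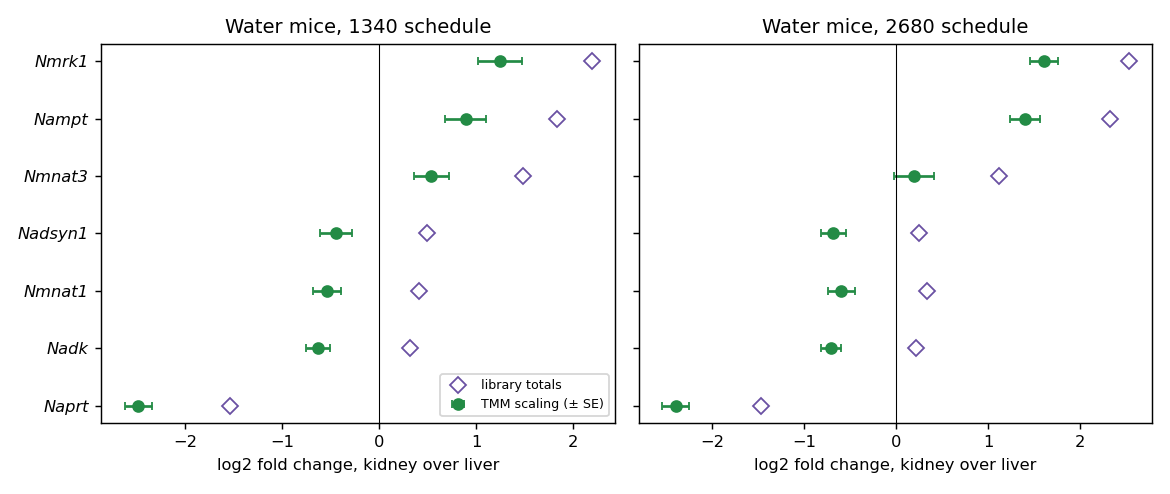
Log2 fold change of each gene, kidney over liver, in water mice of the 1340 (left) and 2680 mg/kg/d (right) schedule. Circles with bars are estimates ± SE with TMM scaling and diamonds are estimates with library totals. Nmrk1 and Nampt are right of 0 and Naprt is left of 0 by both, while Nadsyn1, Nmnat1 and Nadk change side.

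The question of the main comparison was whether NMN gavage changed the RNA of the enzymes that use it. In the liver at 2680 mg/kg/d, Nampt rose and Nadsyn1 fell, and no other member passed the test. Values are normalised CPM, on the TMM-scaled library. Nampt was at 31.0, 34.4 and 44.1 in the 3 water livers and at 64.0, 52.7 and 65.5 in the 3 NMN livers. Every NMN liver was above every water liver, with a log2 fold change of 0.73 (SE 0.17, edgeR adjusted p = 0.0303). The exact two-sided permutation test gave p = 0.1, the smallest that 3 against 3 allows. The Nampt call was lost without water liver 1, water liver 2, NMN liver 1 or NMN liver 3, at edgeR adjusted p = 0.117, 0.128, 0.0602 and 0.119, and in a fit with all 14 livers, at 0.0815, while the log2 fold change stayed between 0.63 and 0.89.

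Nadsyn1 was at 22.3, 28.3 and 22.4 normalised CPM in the water livers and at 9.51, 12.6 and 10.6 in the NMN livers. The groups did not overlap, with a log2 fold change of -1.16 (SE 0.19, edgeR adjusted p = 0.00725). The exact two-sided permutation test again gave p = 0.1. The call held without each library in turn, at log2 fold changes from -1.28 to -1.03 and adjusted p up to 0.0469. By level per kb, Nadsyn1 was rank 3 of the 10 members in water livers and rank 6 in NMN livers, below Nmnat1 and Nmrk1 in 3 of 3 mice. The ratio of the Nampt level to the Nadsyn1 level within a library was 0.998 ± 0.260 (0.795 to 1.29) in water livers and 3.72 ± 0.879 (2.73 to 4.40) in NMN livers. This ratio restates the Nampt and Nadsyn1 differences of the same libraries and is no separate evidence.

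**Figure D3:**
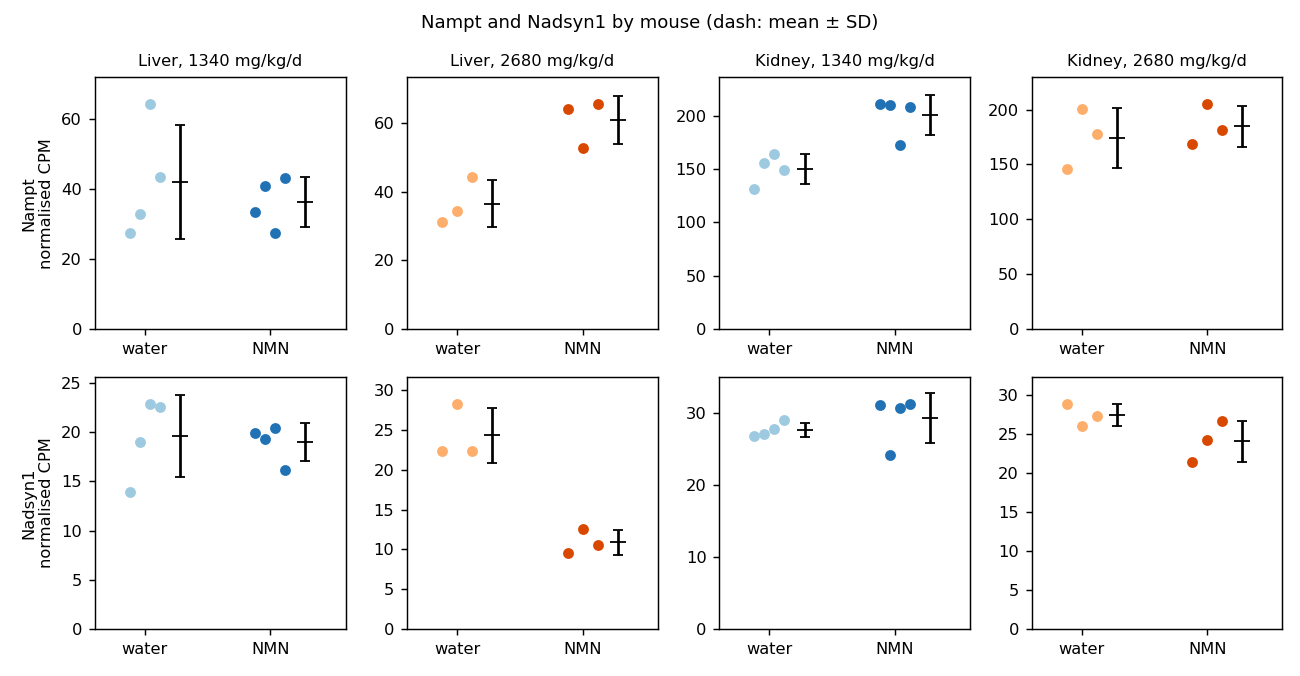
Normalised CPM of Nampt (top) and Nadsyn1 (bottom) in each mouse, water against NMN, for liver and kidney in both schedules. Points are mice, and the dash with bars is the mean ± SD. In the liver at 2680 mg/kg/d the groups are apart for both genes and in opposite directions, and in the kidney at 1340 mg/kg/d they are apart for Nampt.

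Of the remaining members tested in that liver comparison, Slc12a8 had 2, 5 and 6 counts in water livers and 29, 12 and 12 in NMN livers. Its groups did not overlap, and its log2 fold change was 1.87 (SE 0.72, edgeR adjusted p = 0.140), or 1.32 without NMN liver 1, the library with 37.4 CPM of kidney tubule markers. Their part in the Slc12a8 counts was not tested. Nmrk1 was at 8.39, 11.9 and 11.7 normalised CPM in water livers and 13.6, 14.7 and 11.98 in NMN livers, at 0.33 (SE 0.21, edgeR adjusted p = 0.349), also without overlap. Nmnat3 was at 5.51, 8.83 and 8.40 in water livers and 1.67, 4.25 and 6.20 in NMN livers, at -0.91 (SE 0.41, edgeR adjusted p = 0.201), with overlap. Nmnat3 passed without a filter on low counts (-0.90, edgeR adjusted p = 0.0373), and its estimate ran from -1.35 to -0.54 without each library in turn. Nmnat1, Naprt and Nadk had log2 fold changes of -0.08, -0.06 and -0.01, which became 0.07, 0.09 and 0.14 with library totals. Thus 2 of the 8 members tested were called, where 7.08% of 12477 genes were, with 1 higher and 1 lower beside 3.05% and 4.03%. At an unadjusted p under 0.05 there were 4, where 24.6% of genes were, and 4 of 8 had groups without overlap, where 29.8% of genes did.

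With library totals in place of TMM the median of all genes in this comparison moved by 0.15 on the log2 scale, Nampt was at 0.88 and Nadsyn1 at -1.01, and both stayed called. Over all genes 380 were called higher and 503 lower by TMM, and 819 and 327 with totals. Marker levels moved with NMN here. The 8 hepatocyte markers summed to 156538 to 164995 CPM in water livers and 133133 to 142773 in NMN livers, and 7 red cell markers, led by Alas2, to 108 to 126 CPM and 45.5 to 87.6 CPM. The part of these in the changes of Nampt, Nadsyn1 and Nmnat3 was not tested.

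In the liver at 1340 mg/kg/d none of the 7 members tested was called by edgeR, by DESeq2 or at an unadjusted p under 0.05, where edgeR called 0.0161% of 12449 genes and 6.86% had such a p. Nampt ran from 27.5 to 64.1 normalised CPM in the 4 water livers and from 27.4 to 43.0 in the 4 NMN livers, at -0.21 (SE 0.24). The wide span of the water livers came from mouse 3, at 64.1, with the others at 27.5, 32.8 and 43.4, and without it the estimate was 0.06. Nadsyn1 was at 13.9 to 22.9 in water livers and 16.2 to 20.5 in NMN livers, at -0.045 (SE 0.18). The lowest estimates were those of Nmnat3, at -0.58 (SE 0.33), and Nmrk1, at -0.52 (SE 0.30), both at edgeR adjusted p = 0.802. All 7 members had overlapping groups, where 3.53% of genes did not overlap.

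In the kidney at 1340 mg/kg/d, Nampt was at 131, 156, 165 and 150 normalised CPM in the water mice and at 211, 210, 173 and 208 in the NMN mice. Every NMN kidney was above every water kidney (exact two-sided permutation p = 0.0286, the smallest 4 against 4 allows). The log2 fold change of 0.42 (SE 0.10) missed the threshold over all genes with edgeR (adjusted p = 0.113). It passed with DESeq2 (adjusted p = 0.0117), without a filter on low counts in edgeR (0.00657), and without NMN kidney 3 (0.48, edgeR adjusted p = 0.0310), the library with the lowest Nampt of its group. That library also held 75.3 CPM of 8 adipocyte markers, against 2.22 to 3.42 CPM in the other NMN kidneys and 11.8 to 56.9 in water kidneys, and the part of these cells was not tested. The 8 tubule markers summed to 32989 to 39877 CPM in water kidneys and to 26688 to 31680 in NMN kidneys, and this too was not tested.

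Nmnat3 was lower in every NMN kidney of that schedule, at 12.1 to 16.8 normalised CPM against 17.5 to 20.1, with a log2 fold change of -0.34 (SE 0.14, edgeR adjusted p = 0.485). Nmrk1 ran from 65.2 to 89.6 in NMN kidneys and from 62.3 to 105 in water kidneys, at -0.17 (SE 0.16). The remaining 4 members tested were between -0.12 and 0.10. Slc12a8 had 2 to 7 counts in water kidneys and 4 to 13 in NMN kidneys, too few to be tested. None of the 7 members tested was called by edgeR, where 0.120% of 14972 genes were. DESeq2 called 1 member, and 159 genes over all genes. At an unadjusted p under 0.05 there were 2 members, as 8.94% of genes were. Groups were without overlap for 2 of 7, where 5.12% of genes were.

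In the kidney at 2680 mg/kg/d, Nampt was at 146, 200 and 178 normalised CPM in water mice and at 168, 205 and 181 in NMN mice, at 0.08 (SE 0.12), with the groups overlapping. Nmnat1 was at 16.8, 16.9 and 15.9 in water kidneys and at 17.8, 24.1 and 19.8 in NMN kidneys, without overlap, at 0.31 (SE 0.12, edgeR adjusted p = 0.358). Nadsyn1 was at 28.8, 26.0 and 27.4 in water kidneys and 21.3, 24.2 and 26.6 in NMN kidneys, at -0.19 (SE 0.10, edgeR adjusted p = 0.533). Nadk was also without overlap, at -0.07 (SE 0.07). Slc12a8 had 8 to 13 counts in water kidneys and 7 to 21 in NMN kidneys, at -0.23 (SE 0.45, edgeR adjusted p = 0.896), with overlap. None of the 8 members tested was called by edgeR or DESeq2, with 1 at an unadjusted p under 0.05, where edgeR called 0.400% of 15245 genes and 11.1% had such a p. The 2 members without overlap stand beside 17.2% of all genes. Tubule markers summed to 31397 to 32632 CPM in these water kidneys and to 24009 to 28586 in the NMN kidneys.

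**Figure D4:**
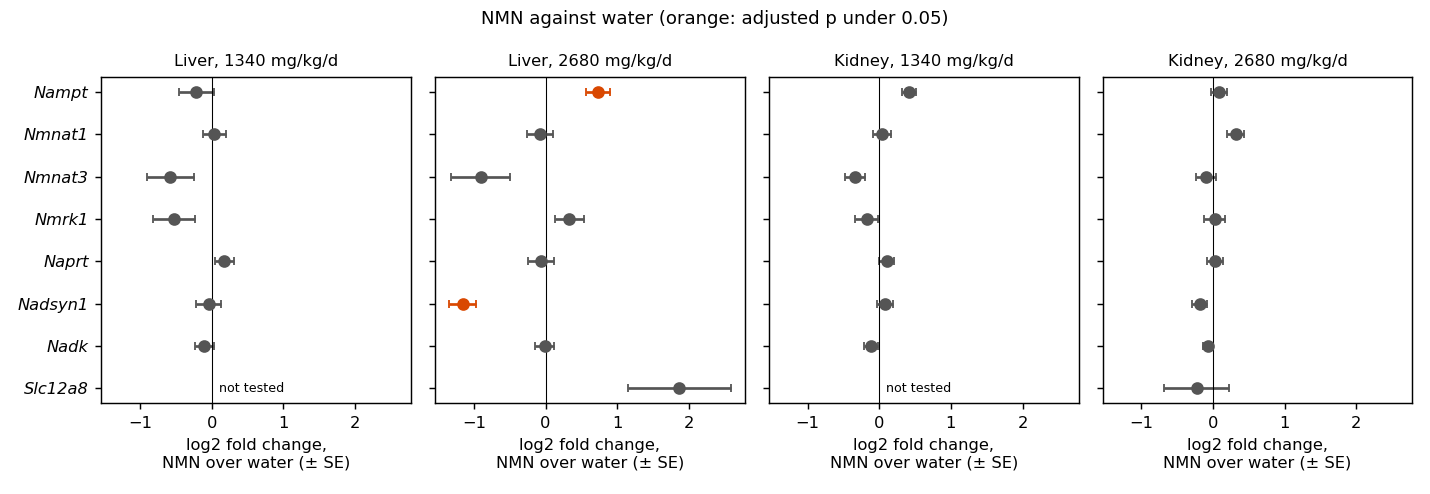
Log2 fold change of each gene, NMN over water, with its SE, in liver and kidney at 1340 and 2680 mg/kg/d. Orange points passed an edgeR adjusted p of 0.05. Only Nampt and Nadsyn1 in the liver at 2680 mg/kg/d did, and Nmnat2 and Nmrk2 had too few counts to be tested in any of these comparisons.

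Whether the response differed between schedules or organs was tested as an interaction. For Nadsyn1, the effect in the kidney exceeded that in the liver at 2680 mg/kg/d by 0.98 (SE 0.21, edgeR adjusted p = 0.0291), since the RNA fell in the liver and was at -0.19 in the kidney. It was the member called of 8 tested, where 2.67% of 15811 genes were and 1.62% were called higher, and 3 members had an unadjusted p under 0.05, where 19.4% of genes did. The call was lost without water liver 2, NMN liver 3, any 1 water kidney, NMN kidney 2 or NMN kidney 3, at edgeR adjusted p from 0.0647 to 0.0944. For Nampt the same difference was -0.64 (SE 0.22, edgeR adjusted p = 0.128), and for Slc12a8 -2.11 (SE 0.82, edgeR adjusted p = 0.176). Over all genes 256 organ differences were called higher and 166 lower by TMM, and 154 and 372 with library totals, which moved the median by -0.15.

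Between schedules in the liver, the difference for Nadsyn1 was -1.10 (SE 0.26, edgeR adjusted p = 0.123) and for Nampt 0.96 (SE 0.33, adjusted p = 0.396), so neither was shown to differ. Library totals moved the median of all genes by 0.13 there and gave -0.97 and 1.09. No member was called there by edgeR, and 3 had an unadjusted p under 0.05, where edgeR called 0.0746% of 13412 genes and 8.60% had such a p. DESeq2 called 1 member (Nadsyn1), and 98 genes over all genes. In the kidney no member was called by edgeR or DESeq2, with 2 at an unadjusted p under 0.05, where 0.00625% of 15989 genes were called and 4.61% had such a p, and Nampt had -0.34 (SE 0.16). Between organs at 1340 mg/kg/d no member was called by edgeR or DESeq2, with 1 at an unadjusted p under 0.05, where 0.00% of 15614 genes were called and 5.79% had such a p, and Nampt had 0.65 (SE 0.27).

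The wider pathway was read from lists of 66 other genes, covering synthesis from tryptophan, clearance of nicotinamide, breakdown outside and inside the cell, consumption, transport and NADP+. At 2680 mg/kg/d in the liver, 2 of the 51 tested rose and 4 fell, where 3.05% and 4.03% of all genes did, with a median log2 fold change of -0.01 beside 0.00 over all genes. At an unadjusted p under 0.05 there were 22, where 24.6% of all genes were. DESeq2 called 8 of the listed genes and 1450 over all genes. Of the tryptophan arm, 8 of 9 genes were tested. Acmsd, whose enzyme diverts the precursor of quinolinic acid away from NAD+, rose from 29.6 ± 4.77 to 94.1 ± 34.3 normalised CPM (n = 3 and 3), at 1.67 (SE 0.24, edgeR adjusted p = 0.00513). Qprt, whose enzyme commits quinolinic acid to NAD+, fell from 201 ± 15.9 to 118 ± 19.3, at -0.78 (SE 0.15, edgeR adjusted p = 0.0168). Tdo2, the first enzyme of the arm in the liver, had 0.38 (SE 0.16, edgeR adjusted p = 0.166).

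Among 6 tested transport genes, Slc25a51, which carries NAD+ into mitochondria, rose from 26.1 ± 5.57 to 57.7 ± 13.2 normalised CPM, at 1.15 (SE 0.21, edgeR adjusted p = 0.0131), and Slc25a17, a peroxisomal carrier of NAD+ and CoA, fell from 60.9 ± 4.93 to 41.0 ± 1.23, at -0.57 (SE 0.14, edgeR adjusted p = 0.0355). Among 8 tested genes of breakdown inside the cell, Nudt7, a peroxisomal hydrolase of CoA, fell from 629 ± 129 to 248 ± 82.9, at -1.34 (SE 0.25, edgeR adjusted p = 0.0169). Among 19 tested NAD+ consumers only Parp3, a mono-ADP-ribosyltransferase, was called, falling from 23.1 ± 1.41 to 13.9 ± 2.65, at -0.73 (SE 0.19, edgeR adjusted p = 0.0416). None of the 3 tested clearance genes, of the 6 of breakdown outside the cell or of the NADP+ list (Nadk2 alone was tested) was called by edgeR. Aox1, an oxidase of nicotinamide products, and Nadk2 had unadjusted p of 0.00738 and 0.0359, at log2 fold changes of 0.54 and 0.51, and Aox1 was called by DESeq2. Slc25a17 and Parp3 lost the call with library totals, at edgeR adjusted p = 0.0813 and 0.0752. Without each library in turn the Acmsd call held, at adjusted p up to 0.0336. Other calls were lost without some libraries, for Slc25a51 without NMN liver 3 (edgeR adjusted p = 0.0571), for Nudt7 without water liver 3 or NMN liver 1 (0.0524 and 0.0626), and for Qprt without water liver 1 or 2 or NMN liver 3 (0.0525, 0.0837 and 0.0779). For Parp3 and Slc25a17 every removal but that of NMN liver 2 ended the call, at adjusted p of up to 0.167 and 0.120.

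Acmsd moved the other way in the kidney, where it fell at 2680 mg/kg/d from 156 ± 9.27 to 79.6 ± 18.6 normalised CPM, at -0.98 (SE 0.15, edgeR adjusted p = 0.0377). The difference between organs was -2.63 (SE 0.32, edgeR adjusted p = 0.00097) and that between schedules in the liver 2.28 (SE 0.38, adjusted p = 0.0262). The kidney call was lost with library totals (edgeR adjusted p = 0.0774), with all 14 kidneys in the fit (0.137) and without any 1 water kidney or NMN kidney 3, at up to 0.184. The difference between schedules was lost with a replicate block (edgeR adjusted p = 0.0831) and without 6 of the 14 livers, at up to 0.152. These were water livers 3 and 4 and NMN livers 2 and 3 of the 1340 mg/kg/d schedule and water livers 2 and 3 of the other. At 1340 mg/kg/d no listed gene was called by edgeR in the liver (50 tested, 7 at an unadjusted p under 0.05, 0 by DESeq2) or the kidney (55 tested, 5 at an unadjusted p under 0.05, 3 by DESeq2). Over all genes edgeR called 0.0161% and 0.120%, and 6.86% and 8.94% had such a p, while DESeq2 called 74 and 159 genes. In the kidney at 2680 mg/kg/d 1 of 55 listed genes, Acmsd, was called by edgeR, where 0.400% of all genes were. DESeq2 called 3 (Acmsd, Qprt and Slc25a51), and 236 genes over all genes. At an unadjusted p under 0.05 there were 14, where 11.1% of all genes were. At 1340 mg/kg/d Acmsd was at -0.74 (SE 0.20, edgeR adjusted p = 0.275) in the kidney, with every NMN mouse below every water mouse, and at -0.61 (SE 0.24, adjusted p = 0.660) in the liver. Qprt was lower in every NMN kidney at both doses, at -0.39 (SE 0.09, edgeR adjusted p = 0.107) and -0.36 (SE 0.08, adjusted p = 0.108), and both passed with DESeq2. Between organs at 2680 mg/kg/d, 5 of 56 listed genes differed in their response, Acmsd and, with a larger estimate in the kidney, Nudt7 (1.49), Ido2 (0.85), Slc25a17 (0.75) and Parp1 (0.67), where 2.67% of all genes did. At an unadjusted p under 0.05 there were 24, where 19.4% of all genes were. DESeq2 called 8 of the listed genes and 1234 over all genes. Without each library in turn the Acmsd difference stayed called, and that of Nudt7 was lost without any 1 water kidney, NMN kidney 2 or NMN kidney 3, at edgeR adjusted p of up to 0.0646. Slc25a17, Ido2 and Parp1 lost the call with library totals (edgeR adjusted p = 0.0524, 0.0699 and 0.0758) and without 4, 9 and 10 of the 12 libraries, at up to 0.0661, 0.108 and 0.0992. Parp1 lost it also with a replicate block and without a filter on low counts (edgeR adjusted p = 0.0509 and 0.0643). Nnmt, the methyltransferase that clears nicotinamide, was at -0.05, -0.33, 0.44 and 0.56 in the liver and then the kidney at 1340 and 2680 mg/kg/d, with SE from 0.31 to 0.42 and edgeR adjusted p of 0.537 or higher. Nt5e (CD73, which dephosphorylates NMN outside the cell), Pnp, Slc29a1 (a nucleoside carrier) and Nadk2 (the mitochondrial NAD+ kinase) were likewise not called in any of the 4 comparisons.

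**Figure D5:**
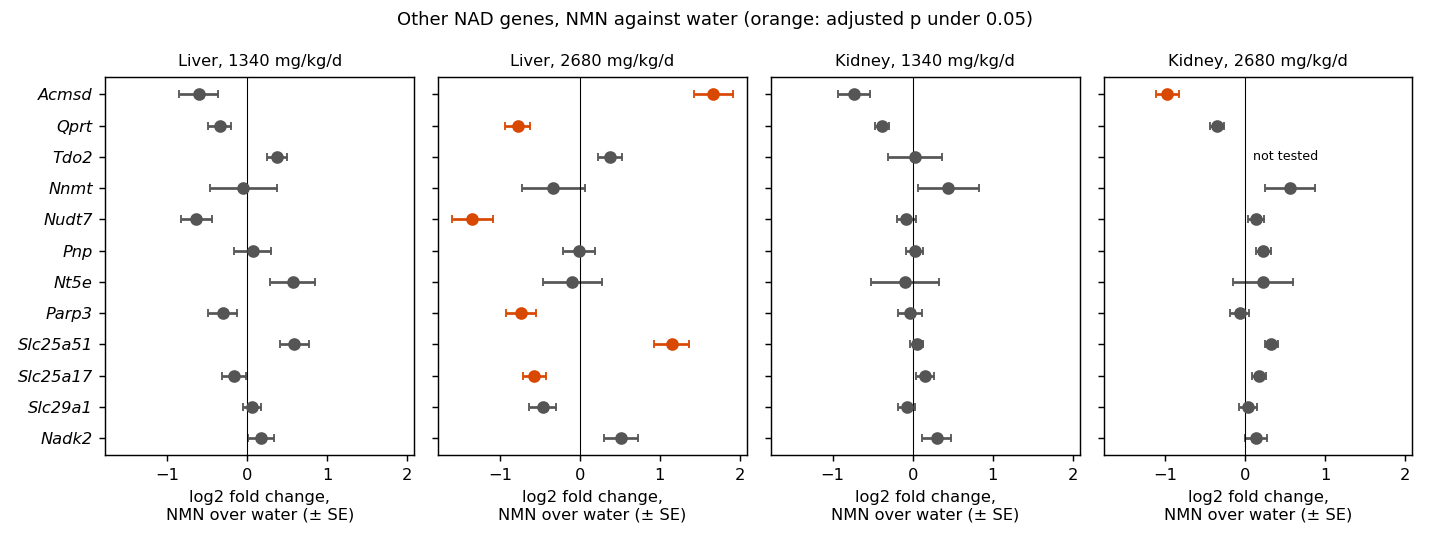
Log2 fold change, NMN over water, with its SE, of 12 other NAD+ genes in liver and kidney at 1340 and 2680 mg/kg/d. Orange points passed an edgeR adjusted p of 0.05. These are 6 liver points at 2680 mg/kg/d, among them Acmsd, and Acmsd in the opposite direction in the kidney.

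The genes most like a member were sought over the 14 libraries of an organ, after each schedule was centred on its mean. Such correlations share libraries, depth and the treatment itself and are a description. In the liver, Nampt was followed most closely by Fam8a1 (Pearson r = 0.96), Mapk8 (0.92) and Met (0.92), and Nadsyn1 by Rdh16f2 (0.93), Anxa4 (0.92) and Ank (0.91). In the kidney, Nampt was nearest to Lclat1 (0.94), Ttc7b (0.93) and Xpot (0.90). Among the members, Nampt had r = 0.77 with Nmrk1 and -0.44 with Nadsyn1 in the liver, and -0.72 with Nmnat3 in the kidney.

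Nampt is a known output of the circadian clock, and 19 clock genes were set beside it. In the kidney, Nampt had r = 0.87 with Tef, 0.83 with Ciart and 0.82 with Nr1d2, and -0.735 with Npas2. In the liver the corresponding values were 0.62, 0.43, 0.70 and -0.57. In the kidney at 1340 mg/kg/d, Bhlhe40, a repressor of clock factors, rose by 0.76 (SE 0.13, edgeR adjusted p = 0.0393) as 1 of 19 tested clock genes, where 0.120% of all genes were called, with a median over the list of 0.27 beside 0.0011 over all genes. The Bhlhe40 call was lost without water kidney 2, 3 or 4 (edgeR adjusted p = 0.0731, 0.0924 and 0.101), without the robust option (0.0644) and in a fit of all 14 kidneys (0.0909).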

How the data were processed

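The authors mapped the reads with STAR and made the count of each gene with HTSeq-count, in strict intersection mode and ignoring strand. The deposited values are raw counts per gene, 1 file per library, for 54446 Ensembl genes, and the reads not assigned to a single gene (on no feature, ambiguous or mapped to several places), 18.6% to 29.3% per library, were left out of totals. Symbols and exon lengths came from GENCODE M21, which 53229 identifiers matched with version, 1180 without (Nmrk1 among them) and 37 not at all. The genome named in the article is no mouse build, so gene coordinates are not given, and promoters are RefSeq's. Nnt, with 2 entries, was left out. Groups and replicate numbers came from the sample labels.

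Each comparison was fitted in R 4.3.3 with edgeR 4.0.16 (filterByExpr, TMM, robust quasi-likelihood test) on its own libraries, with Benjamini-Hochberg adjustment over all tested genes and a threshold of 0.05. Levels used library totals and merged exons. The alternatives were DESeq2 1.42.0, other scalings, filters, thresholds and dispersion settings, thinning, a replicate block, all 14 libraries of an organ and each library left out. Library totals without TMM were added after the data were seen. No replicate pair agreed within sampling noise (chi-square per gene at least 7.10). The fits were tested on simulated data. The named genes were the members, the called genes of the other lists, at most 3 per list and comparison by smallest p, Nnmt, Nadk2, Nt5e, Pnp, Slc29a1 and Tdo2, and the 3 genes most like Nampt and each called member. The members and lists were chosen with earlier results of these data known. Reads carry no molecular tags, so floors cover counting error alone. A result for 1 listed gene is not reported here.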

Additional observations from a re-analysis of the deposited data

Results flagged for a closer look

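In the groups of 4, 36 combinations of gene and group were examined for a sample far from the others, and 4 were found, where chance gives about 1 in 20. Naprt in NMN liver 3 at 1340 mg/kg/d was at 121.0 normalised CPM, with the nearest mouse at 141. In the kidney at 1340 mg/kg/d, Nampt in NMN mouse 3 was at 173, with the nearest at 208. Nadsyn1 in NMN mouse 2 was at 24.2, with the nearest at 30.8, and Slc12a8 in NMN mouse 4 was at 0.280, with the nearest at 0.886. The Slc12a8 value rests on 4 counts. The 3 kidney values come from 3 different mice.

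The response of Nadsyn1 at 2680 mg/kg/d differed between organs by 0.98 on the log2 scale in the edgeR interaction, as given above with its standard error.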

How the results depend on the processing

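Of 1147 log2 fold changes listed under other settings, 1072 kept their direction and their side of the threshold. Of 718 recomputed without 1 library, 594 did, 77 lost the call, 1 gained it and 46 turned sign. Among the 1147, those at the stricter threshold and at the unadjusted p are the fold changes of the main fit. Their direction could not change, only their side of the threshold. The number of members called in the liver at 2680 mg/kg/d, 2 by edgeR, was 1 at an adjusted p under 0.01 with a fold over 2, 3 without a filter, 4 at an unadjusted p under 0.05 and 1 in the fit of 14 libraries. In the kidney at 1340 mg/kg/d it was 0, and 1 with DESeq2, 1 without a filter and 2 at the unadjusted p, and at 2680 mg/kg/d it was 0, and 1 at the unadjusted p. For the difference between schedules it was 0 in both organs, and in the liver 1 with DESeq2, 1 without a filter and 3 at the unadjusted p, and in the kidney 2 at the unadjusted p. Kidney against liver it was 7 and 6 and became 2 and 3 at the stricter threshold. The difference between organs gave 0 at 1340 mg/kg/d, and 1 at the unadjusted p, and 1 at 2680 mg/kg/d, with 0 at the stricter threshold and 3 at the unadjusted p. Leaving out each library gave 1 to 2 members in the liver at 2680 mg/kg/d, 0 to 1 in the kidney at 1340 mg/kg/d, 5 to 7 for kidney against liver at 1340 mg/kg/d and 0 to 1 for the organ difference at 2680 mg/kg/d, and no other range.

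Over all genes, 883 were called in the liver at 2680 mg/kg/d by edgeR, 1450 by DESeq2, 1785 without a filter, 135 at the stricter threshold, and 211 to 1308 without 1 library. In the kidney 18 genes at 1340 mg/kg/d became 159, 269, 2 and 5 to 67, and 61 at 2680 mg/kg/d became 236, 514, 3 and 3 to 191. In the liver at 1340 mg/kg/d 2 became 74, 44, 0 and 0 to 18. The 10 and 1 schedule differences became 98 and 10 by DESeq2 and 71 and 106 without a filter, and the 422 and 0 organ differences 1234 and 27, and 1307 and 9. At the stricter threshold kidney against liver gave 6016 and 6475.

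With library totals, log2 fold changes in the liver at 2680 mg/kg/d turned to 0.0692 for Nmnat1, 0.0908 for Naprt, 0.14 for Nadk, 0.0565 for Nt5e and 0.14 for Pnp, and kidney against liver to 0.41, 0.32, 0.50 and 0.3151 for Nmnat1, Nmnat2, Nadsyn1 and Nadk at 1340 mg/kg/d and 0.33, 0.24 and 0.22 for Nmnat1, Nadsyn1 and Nadk at 2680 mg/kg/d. Removing 1 library turned the sign of values near 0, none of them called. At 1340 mg/kg/d these spanned, in the liver, -0.37 to 0.0648 for Nampt, -0.0265 to 0.0844 for Nmnat1, -0.18 to 0.0379 for Nadsyn1, -0.44 to 0.26 for Nnmt and -0.0768 to 0.32 for Pnp, and in the kidney -0.0314 to 0.12 for Nmnat1, -0.29 to 0.28 for Nt5e, -0.22 to 0.23 for Tdo2 and -0.035 to 0.11 for Pnp. At 2680 mg/kg/d they spanned, in the liver, -0.29 to 0.064 for Naprt, -0.0921 to 0.0359 for Nadk, -0.48 to 0.17 for Nt5e and -0.15 to 0.24 for Pnp. In the kidney they spanned -0.0363 to 0.19 for Nampt, -0.23 to 0.0347 for Nmnat3, -0.10 to 0.18 for Nmrk1, -0.0832 to 0.17 for Naprt, -0.49 to 0.037 for Slc12a8, -0.0404 to 0.57 for Nt5e, -0.026 to 0.23 for Nadk2 and -0.0728 to 0.0944 for Slc29a1. Kidney against liver, Nmnat3 at 2680 mg/kg/d spanned -0.0268 to 0.33.

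The replicate numbers were not treated as pairs in the main fits, and whether they pair the samples is not known. Same-numbered libraries did not deviate together in every comparison. Their correlations were 0.06, 0.18 and 0.21 in the liver at 2680 mg/kg/d, where every library matched its own number best. Kidney against liver, the correlations were 0.270, 0.0867, 0.196 and 0.134 at 1340 mg/kg/d and 0.213, 0.0904 and 0.125 at 2680 mg/kg/d. All were positive but not all above 0.1, and every number but 2 of the first schedule matched its own best. With the replicate block, Nampt was at 0.74 (edgeR adjusted p = 0.0223) and Nadsyn1 at -1.16 (0.00681) in the liver at 2680 mg/kg/d, and no count of members called moved. With it 16, 75 and 92 genes were called in the liver at 1340 and the kidney at 1340 and 2680 mg/kg/d, and 2 each for the schedule difference in the kidney and the organ difference at 1340 mg/kg/d. The block turned the values of Pnp to 0.0142 in the liver at 2680 mg/kg/d, of Tdo2 to -0.0054 in the kidney at 1340 mg/kg/d and of Nmrk1 to -0.0016 in the kidney at 2680 mg/kg/d. The cause of these changes was not tested. Nmnat2 and Slc12a8, at 29 counts or fewer, and 3 mice a group limit what could be called.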
